A study of Mus musculus with 92 samples.

Results

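RNA of 40 mitosis and spindle genes was followed through single bone marrow cells of mice on the way to granulocytes. The list was fixed by name and spans 10 role groups, from chromosome condensation to the final separation of daughter cells. Genes stayed in if 25% or more of a gate's cells gave them a value above 0. All 40 listed genes were among the 23956 gene symbols of the table, and all 40 passed that rule in both gates. The least widely detected was Kif4, above 0 in 14 of 45 GMP cells (31.1%) and 14 of 47 CD11b+ GMP-P cells (29.8%). Smc4 was above 0 in all 45 cells of GMP and in 42 cells of the other gate (89.4%).

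Every cell came from C57BL/6 mice with the genotype Gfi1-R412X/R412X, which carry a premature stop on both copies of the gene for GFI1, a zinc finger repressor needed for granulocyte development. Marrow of crushed hindlimbs was enriched for CD117, the KIT receptor, before sorting, and single cells were lysed and reverse transcribed on a Fluidigm C1 chip. The labels name 2 sort gates, GMP with 45 cells and CD11b+ GMP-P with 47 cells, and give neither ages nor animals. No statement on the mutation itself is possible, with 0 cells of another genotype. The cell numbers run from 1 to 48 for GMP and from 49 to 96 for CD11b+ GMP-P, with 1 date code per gate. What separates the gates cannot be told apart from animal, run or date, so each gate counts as 1 sample. No difference between groups was tested and no p-value was computed: differences describe these cells, and ± is the SD over cells.

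A dividing cell copies its DNA and then condenses its chromosomes, attaches them to a spindle of microtubules, waits at a checkpoint until each is attached, pulls the copies apart and splits. Most of the RNAs for this machinery are made in bursts, rising in late G2 and mitosis and falling again in G1, so a cell that holds many of them at once is taken as cycling. In the neutrophil line, division is known to go on through the promyelocyte and myelocyte stages and to stop at the metamyelocyte stage. Granule proteins are made in a set order over the same stages: elastase (Elane) and myeloperoxidase (Mpo) of the primary granules come first, and lactoferrin (Ltf) of the secondary granules comes later.

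The number of genes detected per cell was higher in GMP (median 5611, from 2775 to 6612) than in CD11b+ GMP-P (median 4143, from 1993 to 5743). The values are TPM, a level per length that keeps no read depth, so depth is unknown and genes detected stand in for it. Itgam, which encodes CD11b, was above 0 in 17 of 45 GMP cells and 38 of 47 CD11b+ GMP-P cells. Mpo was above 0 in every cell of both gates, and Cd34, a progenitor surface marker, in 39 cells of GMP and 16 of CD11b+ GMP-P. Irf8, a monocyte and dendritic cell factor, was above 0 in 30 GMP cells and 4 CD11b+ GMP-P cells. Of the other blood lineages, no marker of erythroid, megakaryocyte, eosinophil or T and NK cells reached 25% of either gate, while 2 of 6 basophil and mast cell markers and 1 of 5 B cell markers did in GMP. The authors' deposited assignment places each cell in 1 of 9 named states, whose names are used here as given.

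A mitosis score was given to each cell as its mean log2(TPM + 1) over the 40 genes. In GMP the score ran from 0.49 through a median of 2.70 to 6.15, and in CD11b+ GMP-P from 0.06 through 3.62 to 6.36. The mean was 2.97 ± 1.70 (SD, n = 45 cells) in GMP and 3.18 ± 1.85 (n = 47 cells) in CD11b+ GMP-P, a difference of 0.21 that is small against the spread of cells. The ranges of the gates overlap almost wholly, and the lowest cells belonged to CD11b+ GMP-P: no GMP cell had fewer than 2 of the 40 genes above 1 TPM. A cell was called high when at least 50% of the 40 genes were above 1 TPM in it, which cuts a continuous range and defines no cell type. Of all 92 cells 51 were high, and 24 of the 92 lay within 10 percentage points of that line.

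High cells made 24 of 45 in GMP (53.3%, exact Clopper-Pearson 95% interval 37.9 to 68.3) and 27 of 47 in CD11b+ GMP-P (57.4%, 42.2 to 71.7). These intervals, and those that follow, cover counting error only. In the Mono state of GMP 13 of 24 cells were high (54.2%, 32.8 to 74.4), in MP 4 of 5, in Gran-1 4 of 6, in Multi-Lin 2 of 5 and in cMoP 1 of 3. In CD11b+ GMP-P, 12 of 20 Gran-2 cells were high (60%, 36.1 to 80.9), 2 of 4 Gran-1, 2 of 3 Myelo-1, 11 of 15 Myelo-2 (73.3%, 44.9 to 92.2) and 0 of 3 Myelo-4. The order of Myelo-2 and Gran-2 rests on the line: from 60% of the genes 46.7% of Myelo-2 and 60% of Gran-2 cells were high, and with genes counted from 10 TPM both stood at 60%. The intervals of all these states overlap, that of Myelo-4 included, which reaches 70.8%.

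**Figure D1:**
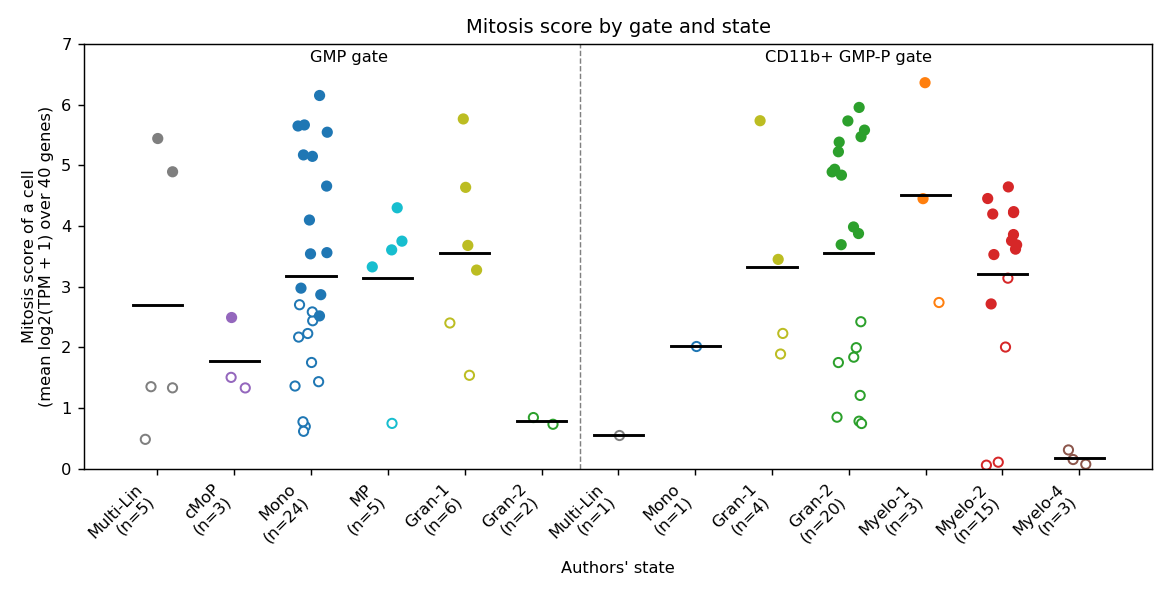
Mitosis score of each cell (mean log2(TPM + 1) over 40 genes) by the authors' state, GMP on the left and CD11b+ GMP-P on the right. Filled points are cells with at least 50% of the genes above 1 TPM and bars are state means: the 3 Myelo-4 cells lie at 0.08 to 0.31, while Myelo-2 has 11 filled cells of 15.

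Most states differed less from each other than cells did within a state, and Myelo-4 lay far below the rest. In order of mean score the states of at least 3 cells were Myelo-1 (4.52 ± 1.81, n = 3), Gran-2 (3.56 ± 1.90, n = 20), Gran-1 of GMP (3.55 ± 1.52, n = 6), Gran-1 of CD11b+ GMP-P (3.33 ± 1.74, n = 4) and Myelo-2 (3.22 ± 1.44, n = 15). Mono followed at 3.18 ± 1.72 (n = 24), MP at 3.15 ± 1.39 (n = 5), Multi-Lin at 2.70 ± 2.29 (n = 5), cMoP at 1.78 ± 0.63 (n = 3) and Myelo-4 at 0.18 ± 0.12 (n = 3). Neighbours in this order down to Multi-Lin differ by less than the SD of either state, and the ranges of their cells overlap. The Myelo-4 range overlapped that of Myelo-2 alone among the states of at least 3 cells, through 2 Myelo-2 cells at 0.06 and 0.11.

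Myelo-2 and Myelo-4 were the 2 states with a high median of Ltf, and most Myelo-2 cells held mitosis RNA that the Myelo-4 cells lacked. Late granule RNA as a whole was not confined to them. Its mean log2(TPM + 1) was 9.54 in Myelo-2 and 11.3 in Myelo-4, with 7.27 in Myelo-1, 5.95 in Gran-2 of CD11b+ GMP-P and 2.69 in Mono of GMP. Ltf ran from 49.6 through a median of 7394 to 21925 TPM over 15 Myelo-2 cells, and was 6373, 21308 and 25772 TPM in the 3 Myelo-4 cells. The median of Ltf in Gran-2 was 0.315 TPM, where Elane stood at a median of 36043 TPM, against 4.0 TPM in Myelo-2 and 2.29 TPM in Myelo-4. Together the primary and late granule lists held 56.3% of a cell's TPM in Myelo-2 and 59.6% in Myelo-4, as medians. These lists count S100a8, S100a9 and Calr beside the genes of granule proteins. In both Ltf and Elane the medians of Myelo-2 and Myelo-4 lay far from those of Gran-2.

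Among the 15 Myelo-2 cells, the number of mitosis genes above 1 TPM ran from 0 through a median of 23 to 28 of 40. Among 20 Gran-2 cells it ran from 6 through 26.5 to 36, and among 24 Mono cells from 4 through 20.5 to 39. The 3 Myelo-4 cells held 1, 1 and 3. In 10 of the 11 high Myelo-2 cells Ltf was above 1000 TPM, between 2621 and 21925, together with 20 to 27 of the mitosis genes in the same cell. High and other Myelo-2 cells had nearly the same median of Ltf, 7394 and 7257 TPM.

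Summed over the 40 genes, Myelo-2 cells held a median of 4713 TPM (range 2.06 to 9749), Gran-2 cells 4405 (321 to 8456), Mono cells 2271 (396 to 7021) and Myelo-4 cells 20.2 (6.00 to 102). The sum in Myelo-2 was reached in cells with few genes: a Myelo-2 cell had a median of 2936 genes detected (1993 to 3257), a Gran-2 cell 4595 and a Mono cell 5624. Counting the mitosis genes among the 1500 genes with the highest TPM of a cell gave a median of 20 in Myelo-2, 18 in Myelo-1, 12.5 in Gran-2, 6 in Mono and 2 in Myelo-4. The ranges of Myelo-2, Gran-2 and Mono overlap (1 to 23, 1 to 20 and 2 to 20). Since 1500 genes are a larger part of the genes detected in a Myelo-2 cell, this count favours states with few genes, and no order is read from it.

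The 2 Myelo-2 cells with scores of 0.06 and 0.11 stood apart from the other 13. They held 0 and 1 mitosis genes above 1 TPM, and at 1993 and 2082 genes detected they were the 2 Myelo-2 cells under 2500 genes, as were all 3 Myelo-4 cells, at 2148 to 2319. The part of detection in the low score of these 5 cells was not tested. Without cells under 2500 genes, 84.6% of Myelo-2 cells were high, and no Myelo-4 cell was left.

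Gene by gene, Myelo-2 was set against Gran-2, the largest state of its gate, over the 7334 genes that passed the same 25% rule in either state. Of the 40 mitosis genes 4 were at least 1 higher on the log2 scale in Myelo-2 and 11 at least 1 lower, while 2.62% of all genes compared were that much higher and 51.2% that much lower. The median difference was -0.27 for the mitosis genes and -1.04 for all genes. The mean score differed by -0.34, and this sign is not stable: the value lay between -0.96 and 1.11 over the alternatives, at 0.03 with TPM rescaled without the granule genes and at 0.14 without cells under 2500 genes.

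The 4 higher genes came from 4 role groups. Smc2, a core ATPase of condensin, had a mean of 5.44 ± 2.55 in Myelo-2 and 4.18 ± 2.61 in Gran-2, and Mki67, whose product Ki-67 coats mitotic chromosomes, 5.18 ± 2.72 and 3.95 ± 2.71. Ndc80, of the complex that holds microtubules at the kinetochore, was at 3.77 ± 3.78 and 2.64 ± 3.17, and the chromosome-bound kinesin Kif4 at 1.77 ± 3.09 and 0.73 ± 1.54. Each of these differences is smaller than the SD over cells. Smc2 and Mki67 were each above 1 TPM in 13 of 15 Myelo-2 cells and 16 of 20 Gran-2 cells.

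The 11 lower genes were spread over 9 role groups. Aurkb, the kinase of the chromosomal passenger complex, differed most, at 1.32 ± 2.40 in Myelo-2 and 4.15 ± 4.06 in Gran-2. Cdc20, the activator of the anaphase-promoting complex, was above 1 TPM in 1 of 15 Myelo-2 cells and 9 of 20 Gran-2 cells, and the checkpoint kinase gene Bub1 in 1 of 15 and 10 of 20. The chromosome-bound kinesin Kif22 differed by -2.24, Ect2, which switches on RhoA at the cleavage site, by -1.62 and Kif20b by -1.49. Smc4 (-1.24), Cenpf (-1.10), Cks2 (-1.05), Prc1 (-1.04) and Plk1 (-1.004) made up the rest, with Plk1 just past the line. Cdca8, the borealin subunit of the same passenger complex as Aurkb, was not lower: its mean was 6.64 ± 3.20 in Myelo-2 and 5.91 ± 3.49 in Gran-2, with 13 of 15 and 16 of 20 cells above 1 TPM.

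**Figure D2:**
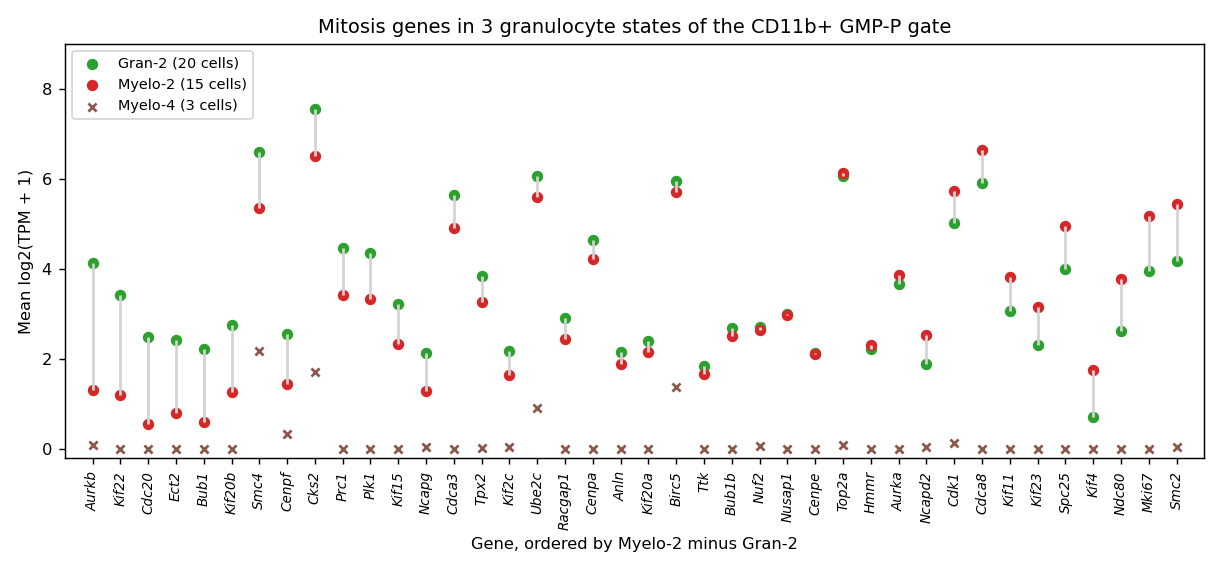
Mean log2(TPM + 1) of the 40 genes in Gran-2 (20 cells), Myelo-2 (15 cells) and Myelo-4 (3 cells), ordered by Myelo-2 minus Gran-2. Aurkb, Kif22 and Cdc20 lie at the low end, Smc2 and Mki67 at the high end, and the Myelo-4 crosses lie near 0 for all but a few genes such as Smc4 and Cks2.

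In Myelo-4, 35 of the 40 genes were above 1 TPM in none of the 3 cells. Against Gran-2, 39 of 40 were at least 1 lower on the log2 scale and 0 were higher, where 59.1% of all 7827 genes were that much lower and 8.59% that much higher, and the median was -3.04 against -1.31 for all genes. Top2a was at 0, 0.09 and 0.11 TPM, Cdca8 and Cdc20 were at 0 in all 3 cells, and Cks2, the gene for a small subunit of the CDK1 kinase, was above 1 TPM in 1 cell at 18.7 TPM. Smc4 was at 94.9 TPM in 1 Myelo-4 cell and at 0 in the other 2. Myelo-2 set directly against Myelo-4 showed 37 of 39 genes compared at least 1 higher and 0 lower, with 33.8% and 18.9% of 5775 genes as the background. The median difference was 2.97 for the mitosis genes and 0.42 for all genes, and these states share no cells.

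The promoters of the genes at both ends of the Myelo-2 comparison are shown because G2 and mitosis genes are known to share a pair of promoter elements. The CHR, the cell cycle genes homology region, is read by the MuvB complexes that switch these genes off in G1 and on in G2, and CCAAT boxes are read by NF-Y. The sequences are RefSeq's, on the GRCm38.p6 build, given 5′ to 3′ from 80 bases before to 50 bases after the start of transcription. Capitals mark TTTGAA or TTCGAA (CHR) and CCAAT on either strand, so that TTCAAA and ATTGG are the same motifs read from the other strand. The first 3 genes were the highest and the last 3 the lowest in Myelo-2 minus Gran-2 among genes with 1 promoter entry.
Smc2 (chr4:52439141-52439270, plus strand): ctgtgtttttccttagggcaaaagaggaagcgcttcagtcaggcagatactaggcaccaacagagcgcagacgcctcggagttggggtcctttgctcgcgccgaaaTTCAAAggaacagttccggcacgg
Mki67 (chr7:135716330-135716459, minus strand): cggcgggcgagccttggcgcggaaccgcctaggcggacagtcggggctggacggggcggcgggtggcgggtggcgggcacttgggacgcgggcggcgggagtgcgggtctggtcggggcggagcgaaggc
Ndc80 (chr17:71526808-71526937, minus strand): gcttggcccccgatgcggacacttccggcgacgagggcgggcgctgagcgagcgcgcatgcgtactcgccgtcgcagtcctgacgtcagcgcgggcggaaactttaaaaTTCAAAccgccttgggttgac
Kif22 (chr7:127042371-127042500, minus strand): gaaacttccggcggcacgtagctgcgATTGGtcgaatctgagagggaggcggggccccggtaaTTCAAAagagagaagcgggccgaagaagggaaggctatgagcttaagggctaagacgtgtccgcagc
Cdc20 (chr4:118437294-118437423, minus strand): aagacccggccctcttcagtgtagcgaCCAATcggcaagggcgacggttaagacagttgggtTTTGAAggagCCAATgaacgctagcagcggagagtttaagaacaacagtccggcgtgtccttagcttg
Bub1 (chr2:127831810-127831939, minus strand): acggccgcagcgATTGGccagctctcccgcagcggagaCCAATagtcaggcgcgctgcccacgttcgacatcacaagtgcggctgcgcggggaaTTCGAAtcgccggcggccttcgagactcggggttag
Of these windows, that of Mki67 holds neither motif, those of Smc2 and Ndc80 hold 1 CHR and no CCAAT, and those of Kif22, Cdc20 and Bub1 hold 1 CHR with 1 or 2 CCAAT boxes. In the full 300 bases Smc2 and Mki67 also hold CCAAT, and Mki67 a CHR.

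RefSeq promoters were matched for 36 of the 40 genes, with 38 entries, and the other 4 (Kif20a, Aurkb, Tpx2 and Smc4) had no entry. Within 50 bases of the start on either side, a CHR motif lay in 30 of 38 promoters of the mitosis genes (78.9%), in 1743 of all 32851 promoters (5.31%) and in 2 of 37 promoters of DNA replication genes (5.41%). The 57 promoters of mitosis genes outside the list held it in 23 (40.4%). CCAAT lay within the 300 bases of 30 of 38 promoters (78.9%), of 37.4% of all promoters and of 22 of 37 replication promoters (59.5%). Both together were found in 26 of 38 (68.4%) and in 2.24% of all promoters. Genes of the list without a CHR in the whole 300 bases were Birc5, Cenpe, Cks2, Nuf2 and Nusap1. A match is a description of letters and not a binding site.

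By role, the chromosome genes Top2a and Mki67 had higher medians in Myelo-2 than in Gran-2 or Mono. Top2a encodes topoisomerase II alpha, which untangles DNA before separation. Its median was 0.11 TPM in Multi-Lin, 54.9 in cMoP, 16.5 in Mono, 91.6 in MP and 56.5 in Gran-1 of GMP. In CD11b+ GMP-P the median was 71.2 TPM in Gran-1, 182 in Gran-2 (range 0 to 1190.2), 212 in Myelo-1, 349 in Myelo-2 (range 0 to 578) and 0.09 in Myelo-4. The Gran-2 and Myelo-2 ranges overlap and both include 0, and Top2a was above 1 TPM in 16 of 20 and 11 of 15 cells. Mki67 had a median of 12.8 TPM in Mono, 19.9 in Gran-2, 135 in Myelo-1 and 91.1 in Myelo-2 (range 0 to 280), and of 3.91 TPM in MP, where it never passed 4.57.

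Condensin coils each chromosome, with SMC2 and SMC4 as its arms and NCAPD2 and NCAPG as regulatory subunits. Smc4 was above 1 TPM in 44 of 45 GMP cells. Its median was 129 TPM in Mono (range 0.32 to 340.3), 267 in Gran-1, 89.7 in MP, 73.2 in cMoP and 20.6 in Multi-Lin. In CD11b+ GMP-P it stood at 25.6 TPM in Gran-1, 184 in Gran-2 (range 2.19 to 388), 243 in Myelo-1 and 110.2 in Myelo-2 (range 0 to 821). Every Gran-2 cell was above 1 TPM and 4 of 15 Myelo-2 cells were not. Ncapd2 had its highest median of the CD11b+ GMP-P states in Myelo-1, with 18.2, 30.1 and 168 TPM, against a median of 7.51 in Mono, 0.60 in Gran-2 and 3.25 in Myelo-2, while Ncapg was above 1 TPM in 0 of 3 Myelo-1 cells.

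Kinetochores tie centromeres to microtubules. Cenpa, which encodes the histone H3 variant of the centromere, had a median of 51.8 TPM in Mono, 264 in Multi-Lin, 35.7 in Gran-1 of GMP and 0 in both MP and cMoP. In CD11b+ GMP-P its median was 28.8 TPM in Gran-1, 68.8 in Gran-2 (range 0 to 572), 24.6 in Myelo-1 and 31.8 in Myelo-2 (range 0 to 666). These ranges overlap almost wholly. Spc25, a subunit of the NDC80 complex, differed most between the gates: it was above 1 TPM in 13 of 45 GMP cells and 26 of 47 CD11b+ GMP-P cells. Its median was 0 TPM in Mono, cMoP, Multi-Lin and Gran-1 of GMP, 15.4 in MP, 72.99 in Gran-1 of CD11b+ GMP-P, 16.4 in Gran-2, 295 in Myelo-1 and 26.4 in Myelo-2, where 1 cell reached 1657 TPM. Over the 6 kinetochore genes the mean was 2.20 in GMP, with 2.84 in CD11b+ GMP-P.

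The checkpoint genes were low and patchy. Bub1b, which encodes the checkpoint protein BUBR1, had medians of 5.40 TPM in Mono, 1.88 in Gran-2 and 0.34 in Myelo-2, with highest cells at 301, 266 and 589 TPM. Its median was 0.29 TPM in Gran-1 of GMP, 0.46 in Gran-1 of CD11b+ GMP-P, 0.61 in Myelo-1, and 0 in MP, Multi-Lin, cMoP and Myelo-4. In most states a typical cell held little of it while the highest cell held far more. Ttk, the gene for the kinase MPS1, was above 1 TPM in all 3 Myelo-1 cells (26.5, 103 and 344 TPM) and in 7 of 20 Gran-2 cells.

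The chromosomal passenger complex corrects faulty attachments and then marks the cleavage plane. Birc5, the gene for its survivin subunit, was among the highest of the list, with medians of 100.3 TPM in Mono, 166 in MP, 161 in Gran-1 of GMP, 4.77 in cMoP and 1.70 in Multi-Lin. In CD11b+ GMP-P it stood at 179 TPM in Gran-1, 194 in Gran-2, 189 in Myelo-1, 86.9 in Myelo-2 and 0.79 in Myelo-4. It was above 1 TPM in 12 of 15 Myelo-2 cells. Aurkb did not follow it there: its median was 10.8 TPM in Gran-2 (range 0 to 929) and 0 in Myelo-2 (range 0 to 162), with 44.2 in Gran-1 and 147 in Myelo-1. In GMP the Aurkb median was 58.4 TPM in MP, 27.4 in Gran-1, 0.60 in Multi-Lin, 0.14 in Mono and 0 in cMoP.

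Among the mitotic kinases and their partners, Cks2 had the highest mean of the list, 8.04 ± 2.25 in GMP and 6.95 ± 3.36 in CD11b+ GMP-P. Its median TPM was 612 in Multi-Lin, 261 in cMoP, 353 in Mono, 342 in MP and 401 in Gran-1 of GMP. In CD11b+ GMP-P it was 871 in Gran-1, 413 in Gran-2, 267 in Myelo-1, 205 in Myelo-2 and 0.80 in Myelo-4. Among states of at least 3 cells, the Myelo-4 cells, none above 18.7 TPM, overlap only those with a cell near 0 (Mono of GMP, and Gran-2 and Myelo-2 of CD11b+ GMP-P). Cdk1, the kinase that drives entry into mitosis, had a median of 29.02 TPM in Mono, 132 in Gran-2 (range 0 to 272), 304 in Myelo-1 and 207 in Myelo-2 (range 0 to 476). Plk1, a kinase of centrosome and spindle assembly, was above 1 TPM in 0 of 5 MP cells and 1 of 4 Gran-1 cells of CD11b+ GMP-P, but in 11 of 20 Gran-2 and 7 of 15 Myelo-2 cells.

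Ubiquitin ligases end mitosis by destroying cyclins and securin. Cdc20 had the lowest difference, CD11b+ GMP-P minus GMP, of the list: it was above 1 TPM in 25 of 45 cells and 14 of 47. Its median was 29.9 TPM in Mono (range 0 to 414) and 25.3 in Gran-1 of GMP, and under 1 TPM in Multi-Lin, cMoP and MP. In CD11b+ GMP-P it was 1.98 TPM in Gran-1, 0.26 in Gran-2 (range 0 to 192), 6.25 in Myelo-1 and 0 in Myelo-2, where 1 cell held 111 TPM. Ube2c, the ubiquitin carrier enzyme that works with the same complex, did not share this pattern: its median was 19.9 TPM in Mono, 275 in Gran-2 and 141 in Myelo-2. Cdca3, which promotes entry into mitosis, had medians between 50.98 and 150.3 TPM in the GMP states of at least 3 cells, and of 85.9 in Gran-1 of CD11b+ GMP-P, 154.5 in Gran-2, 338 in Myelo-1, 138 in Myelo-2 and 0 in Myelo-4.

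The kinesins differed among themselves. Kif22, which moves chromosome arms, had the highest mean of the 8 in GMP and was lower in CD11b+ GMP-P, with medians of 142 TPM in MP, 48.2 in Gran-1 of GMP, 18.4 in Mono, and 0 in cMoP and Multi-Lin. In CD11b+ GMP-P it stood at 62.7 TPM in Gran-1, 19 in Gran-2, 0.69 in Myelo-1 and 0 in Myelo-2 and Myelo-4. Kif2c, which takes microtubules apart at kinetochores, was at 104, 111 and 152 TPM in the 3 Myelo-1 cells, against medians of 0.22 in Gran-2 and 139 in Gran-1 of GMP. Kif11, the motor that pushes spindle poles apart, was above 1 TPM in 18 of 45 GMP cells and 28 of 47 CD11b+ GMP-P cells.

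Of the spindle genes, Tpx2, which nucleates spindle microtubules, had medians of 17.4 TPM in Mono, 15.5 in MP, 55.2 in Multi-Lin and 4.86 in Gran-1 of GMP. It stood at 16.9 TPM in Gran-2, 6.08 in Myelo-2 and 0 in cMoP, Myelo-1, Myelo-4 and Gran-1 of CD11b+ GMP-P. Prc1, which bundles the central spindle, was above 1 TPM in 18 GMP and 27 CD11b+ GMP-P cells. Its median was 69.5 TPM in Gran-2 (range 0 to 544), 33.1 in Myelo-1, 11.4 in Gran-1 of CD11b+ GMP-P and 3.06 in Myelo-2, and under 1 TPM in each GMP state of at least 3 cells. Gran-2 and Mono overlap in Prc1 over nearly their whole ranges, from 0 to 544 and from 0 to 558 TPM.

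Cytokinesis genes were low as a group, with means of 2.01 in GMP and 2.08 in CD11b+ GMP-P. Racgap1, which with the kinesin KIF23 forms the centralspindlin complex, had medians of 11.1 TPM in Mono, 64 in Gran-1 of GMP, 55.3 in Multi-Lin, 10.8 in Gran-1 of CD11b+ GMP-P, 3.88 in Gran-2, 41.6 in Myelo-1 and 0.59 in Myelo-2. It was at a median of 0 TPM in cMoP, MP and Myelo-4. Anln, the gene for anillin of the cleavage furrow, was above 1 TPM in 11 of 45 GMP cells with a highest value of 23.6 TPM, and in 19 of 47 CD11b+ GMP-P cells with a highest value of 292. Its median was 1.02 TPM in Gran-2 and under 1 in each other state of at least 3 cells.

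**Figure D3:**
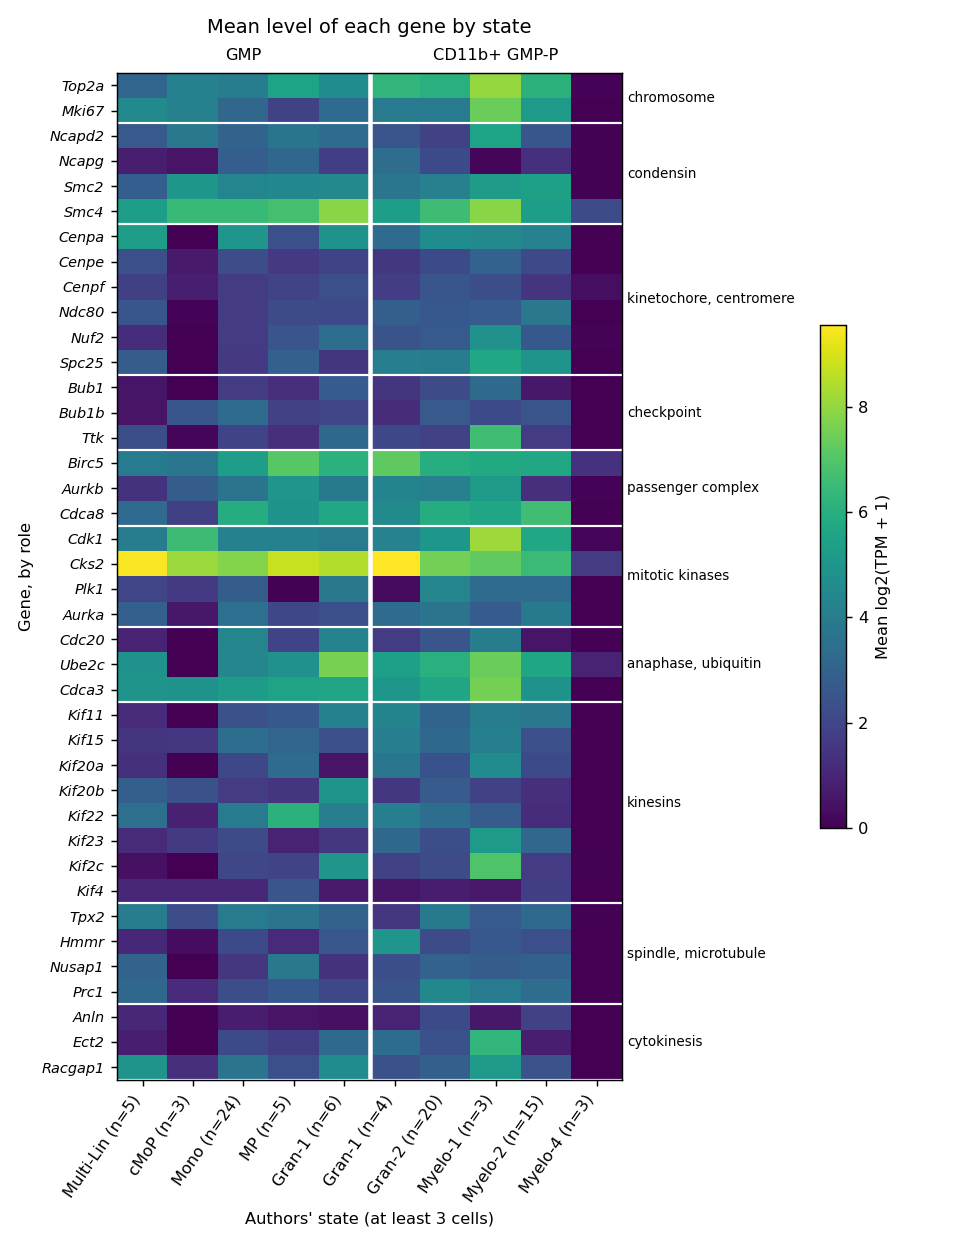
Mean log2(TPM + 1) of each of the 40 genes (rows, by role) in the authors' states of at least 3 cells (columns), GMP left and CD11b+ GMP-P right. Cks2, Smc4 and Birc5 are bright across most states, the Myelo-4 column is dark, and Myelo-1 stands out for Ttk, Kif2c and Ect2.

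Myelo-1 had the highest mean score but only 3 cells, at 2.74, 4.45 and 6.36. Against Gran-2, 19 of the 40 genes were at least 1 higher and 4 at least 1 lower, where 20.9% and 25.8% of 8297 genes were. The largest differences were 4.79 for Ttk, 4.73 for Kif2c, 3.86 for Ect2, 3.64 for Ncapd2 and 3.45 for Mki67. Gran-1 of CD11b+ GMP-P, set against Gran-2, had 6 genes higher and 9 lower (27.8% and 12.2% of 8999 genes). Hmmr, a spindle pole protein gene, was 2.75 higher there, and Plk1 differed by -4.06, at 0.29 ± 0.59 against 4.35 ± 4.30.

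Within GMP, the states were set against Mono, which these comparisons share, as those above share Gran-2. In cMoP 25 of 40 genes were at least 1 lower and 2 higher, where 25% and 20.6% of 9296 genes were. The score was 1.78 ± 0.63 over 3 cMoP cells against 3.18 ± 1.72 in Mono. That gap is larger than the SD of cMoP and smaller than the SD of Mono. The cMoP cells, at 1.33 to 2.49, lie within the Mono range of 0.62 to 6.15. Cenpa, Ube2c and Cdc20 were at 0 in all 3 cMoP cells, and the 2 higher genes were Cdk1 (6.54 ± 1.53 against 4.19 ± 3.18) and Mki67. The difference in score kept its sign in all alternatives, between -2.20 and -0.73. Monocyte markers went the other way, with 6 of 8 at least 1 higher in cMoP.

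In Multi-Lin, 15 genes were at least 1 lower than in Mono and 6 higher, where 44.1% and 9.38% of 8315 genes were. The 5 cells split, with scores of 0.49, 1.34, 1.35, 4.89 and 5.44. All 6 basophil and mast cell markers were higher in these 5 cells, such as Cpa3 at a mean of 9.84 against 0.20 in Mono, and their part in the mitosis values was not tested. In MP, 8 genes were higher and 9 lower (20.9% and 13.1% of 8553 genes), so the count higher lay near the share of all genes. Nusap1 was 2.29 and Kif22 2.18 higher, and Plk1 differed by -2.74. The score difference of MP from Mono was 1.199 in odd-numbered and -1.04 in even-numbered cells. In Gran-1 of GMP, 11 were higher and 5 lower (13.8% and 21% of 8601 genes), led by Kif20b at 3.23, Ube2c at 3.17 and Kif2c at 2.97.

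Between the gates fewer of the mitosis genes than of all genes were lower in CD11b+ GMP-P. Of the 40, 5 were at least 1 higher in CD11b+ GMP-P on the log2 scale, 3 at least 1 lower and 32 in between, whereas 2.72% of the 7803 genes compared were that much higher and 39% that much lower. The median difference was 0.11 for the mitosis genes and -0.74 for all genes. The higher genes were Spc25 at 2.32, Top2a at 1.71, Prc1 at 1.41, Mki67 at 1.16 and Anln at 1.01, with Ndc80 just inside the line at 0.998. The lower were Cdc20 at -1.61, Kif22 at -1.43 and Cks2 at -1.09. Each is smaller in size than the SD of the gene over cells in both gates.

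The gates hold different states and unequal numbers of genes. Without the Myelo states 6 mitosis genes were at least 1 higher, against 5 over all cells, and the share of all genes past the line was not counted. The median difference there was 0.49 for the mitosis genes and -0.31 for all genes. In 19 pairs of cells from the gates with like numbers of genes (medians of 5255 in CD11b+ GMP-P and 5264 in GMP), 27 of 40 genes were at least 1 higher in CD11b+ GMP-P and 0 lower, where 12.3% and 15.6% of 8010 genes were. Their median difference was 1.57, with -0.07 for all genes, and the score was 4.02 ± 1.76 in CD11b+ GMP-P and 2.46 ± 1.67 in GMP, with 14 and 8 high cells. Spc25 (3.43), Kif20a (3.29), Plk1 (3.19) and Top2a (3.08) differed most, and Cks2, Smc4 and Kif4 were below 0. Matching changed the mix of states as well as the number of genes: the matched GMP cells had lower scores than the gate as a whole, and the matched CD11b+ GMP-P cells were mainly Gran-2 (11 of 19) with 2 Myelo-2 cells. Across cells the score went with genes detected, at a Spearman rho of 0.64 over 45 GMP cells and 0.54 over 47 CD11b+ GMP-P cells, and the cells of a gate share a date code. Monocyte markers were lower in CD11b+ GMP-P, with 7 of 7 compared past the line and a summed median of 1.42 TPM against 559 in GMP. Their part in the gate difference was not tested.

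**Figure D4:**
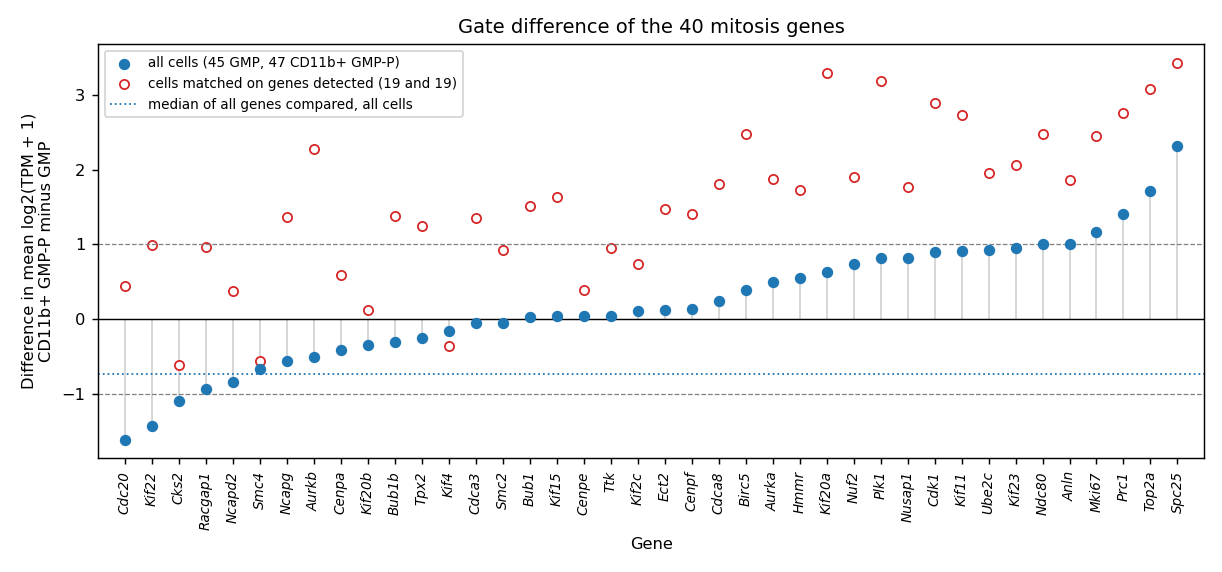
Difference in mean log2(TPM + 1), CD11b+ GMP-P minus GMP, for each of the 40 genes, over all cells (filled) and over 19 cells a gate with like numbers of genes (open). Dashed lines mark 1 and -1 and the dotted line the median of all genes compared, -0.74; the filled points run from Cdc20 at -1.61 to Spc25 at 2.32.

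DNA replication genes, which act in S phase before mitosis, were lower where the mitosis genes were level. Of 38 replication genes 0 were at least 1 higher and 21 at least 1 lower in CD11b+ GMP-P, with a median of -1.09. Of all genes 2.72% were that much higher and 39% that much lower, with a median of -0.74. In the matched cells the replication median was -0.03, with 7 higher and 8 lower. All genes had a median of -0.07 there, with 12.3% higher and 15.6% lower. Between Myelo-2 and Gran-2, 30 of the 38 replication genes were lower and 0 higher, with a median of -1.69. In that comparison 51.2% of all genes were lower and 2.62% higher, with a median of -1.04. The helicase subunit Mcm3 was at 1.34 in Myelo-2 and 5.12 in Gran-2, Mcm5 at 2.73 and 6.24, and Rpa2, of the single strand binding protein, at 0.04 and 3.60. Rrm2, a subunit of ribonucleotide reductase, was still above 1 TPM in 12 of 15 Myelo-2 cells, with a median of 585 TPM.

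Cell by cell, the Spearman rho of the mitosis and replication scores was 0.16 over 45 GMP cells and 0.15 over 47 CD11b+ GMP-P cells. Calling replication high by the same rule, 13 of 24 Mono cells were high for both sets and 11 for replication alone, and none lacked replication. In Gran-2, 11 of 20 were high for both, 6 for replication alone and 1 for mitosis alone. In Myelo-2, 3 of 15 were high for both, 1 for replication alone and 8 for mitosis alone. Over the whole series 12 cells were high for mitosis alone, of which 8 were Myelo-2, 2 Multi-Lin, 1 Myelo-1 and 1 Gran-2. The 3 Myelo-4 cells were high for neither. Myelo-2 had fewer genes detected than Gran-2, and its replication genes among the top 1500 genes of a cell had a median of 9, against 11.5 in Gran-2 and 12 in Mono. That count favours states with few genes, and no order is read from it here either. The part of detection in the replication values of Myelo-2 was not tested.

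**Figure D5:**
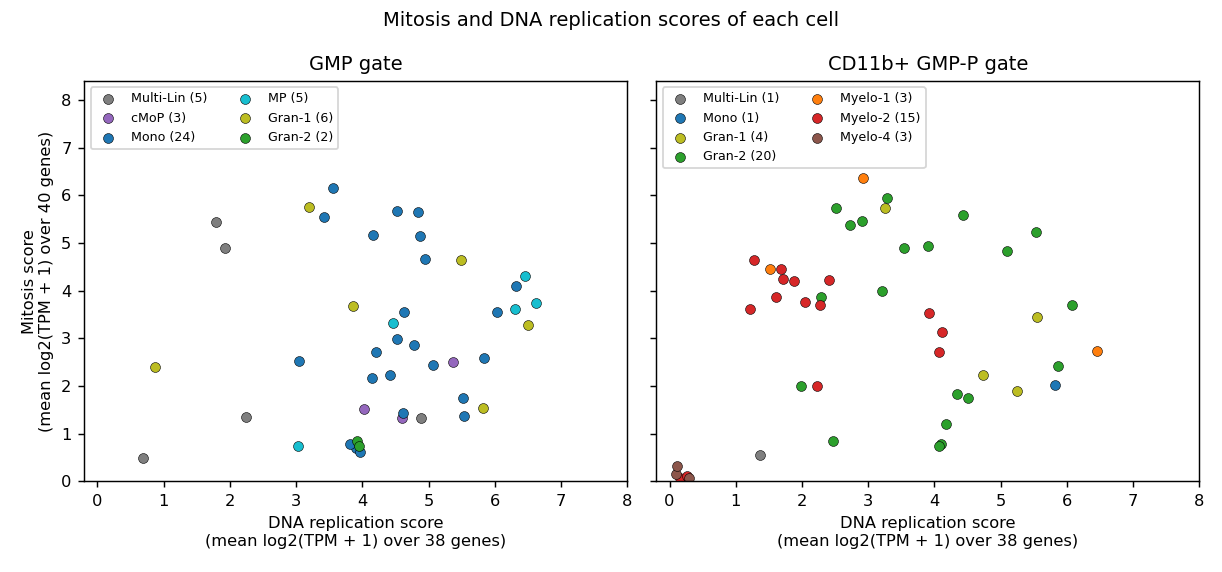
Mitosis score (40 genes) against DNA replication score (38 genes) of each cell, both as mean log2(TPM + 1), in GMP and CD11b+ GMP-P, coloured by the authors' state. Most Myelo-2 cells lie at the upper left of the right panel, at mitosis scores above 2.7 with low replication scores, and Myelo-4 and 2 Myelo-2 cells lie near 0 on both axes.

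The other cell cycle lists were set beside the mitosis genes in the same comparisons. Of 65 further mitosis genes compared between the gates, 1 was at least 1 higher in CD11b+ GMP-P and 11 lower, at a median of -0.38. The kinetochore gene Zwint (-1.96), the checkpoint gene Bub3 (-1.84), Cenph (-1.67) and the microtubule regulator Stmn1 (-1.57) differed most. Between Myelo-2 and Gran-2, 25 of 63 were lower (39.7%, against 51.2% of all genes) and 0 higher, with Cdca5 at -3.38, Cks1b at -2.89, Pttg1, the gene for securin, at -2.55 and Zwilch at -2.53. Cyclin B1 (Ccnb1), the partner of CDK1, was above 1 TPM in 6 of 15 Myelo-2 cells, 12 of 20 Gran-2 cells and 18 of 24 Mono cells.

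The anaphase-promoting complex had 4 of 14 genes lower and 0 higher between the gates, and 8 of 14 lower and 0 higher between Myelo-2 and Gran-2. These shares, 28.6% and 57.1%, lie near those of all genes, 39% and 51.2%. Cdc26 was at 1.67 in Myelo-2 and 4.54 in Gran-2, Cdc16 at 0.38 and 2.85, and Cdc23 at 0 and 1.94. Of 10 cohesin genes, which hold sister chromatids together, 3 were lower between the gates and 3 between Myelo-2 and Gran-2. Smc3 was at 2.01 and 4.12 in the latter, while Rad21, the cleavable ring subunit, was at 5.08 and 4.26.

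Among regulators of mitosis genes, 3 of 12 were at least 1 higher and 4 lower in Myelo-2 than in Gran-2. E2f8, an E2F repressor, was at 3.77 ± 3.30 in Myelo-2 and 1.53 ± 1.91 in Gran-2. Foxm1, an activator of G2 and mitosis genes, was at 2.20 ± 3.19 and 0.96 ± 2.02, and was above 1 TPM in all 3 Myelo-1 cells and 0 of 3 Myelo-4 cells. Tfdp1, the partner of E2F proteins, was lower, at 5.02 and 6.77. Between the gates 1 of 15 regulators was at least 1 higher, E2f2 at 1.40, and 0 were lower.

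Among inhibitors of the cell cycle, the CDK4 and CDK6 inhibitor genes Cdkn2d and Cdkn2c were higher in Myelo-2 than in Gran-2. The inhibitors named here are a selection and do not stand for inhibitors as a group. Cdkn2d was above 1 TPM in 10 of 15 Myelo-2 cells, all 3 Myelo-1 cells, 10 of 20 Gran-2 cells and 11 of 24 Mono cells, and differed by 2.10 between the gates. Cdkn2c was above 1 TPM in 6 of 15 Myelo-2 cells and 1 of 20 Gran-2 cells. In Myelo-4 both were at most 1.01 TPM, while Btg2, an antiproliferative gene, was at 19.96, 891 and 3054 TPM, and Cdkn1b, the gene for the CDK inhibitor p27, at 15.1, 39.6 and 82.5 TPM. Btg2 was not particular to Myelo-4: its median was 153 TPM in Mono, 277 in Gran-1 of GMP and 405 in Multi-Lin, and it reached 1292 TPM in Myelo-2. The Cdkn1b range of Myelo-2, 0.87 to 166 TPM, overlaps that of Myelo-4.

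Each of the 40 genes went with the mean of the other 39 across cells. The Spearman rho was above 0 for 40 of 40 in both gates. Over 45 GMP cells it ran from 0.26 for Smc4 through a median of 0.58 to 0.78 for Birc5. Over 47 CD11b+ GMP-P cells it ran from 0.32 for Bub1b through 0.57 to 0.78 for Ube2c. These points share a date code within each gate and differ in genes detected, which also goes with the score. Within Mono the score went with genes detected at a rho of 0.75, within Gran-2 at 0.79 and within Myelo-2 at 0.28.

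Outside the list, the genes whose values went most closely with the mitosis score in GMP were Tubb5 (rho 0.73), Ccnb1 and Hist1h4d (both 0.71), Spag5 (0.69), Incenp (0.65), Cks1b and Arhgap19 (both 0.64), and Tubb4b, Mad2l1 and Ccna2 (each 0.62). The median over 7510 genes ranked was 0.12. In CD11b+ GMP-P they included Ccnb1 (0.78), Tubb5 (0.75), Calm2, Tuba1c and Tubb4b (each 0.74), Ckap2l (0.73), Kpna2 (0.72), Arhgef39 (0.69) and Tuba1b (0.67), with a median of 0.16 over 6075 genes. Tubb5, Tubb4b, Tuba1c and Tuba1b encode tubulins, and Incenp the scaffold of the passenger complex. The mean of the mitosis genes outside the list went with the score at 0.93 in GMP (0.89 in CD11b+ GMP-P), and the mean of the late granule genes at -0.10 and -0.15. Within states the rho with the late granule genes was -0.43 over 24 Mono cells, -0.40 over 15 Myelo-2 cells and 0.09 over 20 Gran-2 cells. Over the 21 cells of the Myelo states together it was -0.61. In those cells the score also went with genes detected, at a rho of 0.59. The pooled states differ in both means: Myelo-1 had a score of 4.52 and a late granule level of 7.27, and Myelo-4 0.18 and 11.3. The pooled rho thus mixes differences between states with those between cells of a state.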

How the data were processed

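Single cells were sequenced from 2 sort gates, 45 GMP and 47 CD11b+ GMP-P, and grouped by the gate in the labels and by the authors' deposited assignment to 9 states; how these were assigned is not known here. The authors deposited log2 values: back on the linear scale they are TPM plus 1, and the TPM of each cell summed to between 1000000 and 1000001 without Ly6g, which lies outside that scaling. Bowtie2, RSEM and the mm9 build are named in the submitters' processing notes; their versions and settings are not known here. TPM keeps no depth, so genes detected were used in its place. All 92 cells were used, with no doublet calling, and 0 pairs of cells held identical values.

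From these values the mean of log2(TPM + 1), with its pseudocount of 1, was taken per gene and group. This scale understates changes of low genes. Genes above 0 in 25% or more of either group's cells were compared, and a difference of 1 on the log2 scale was the size rule. States of at least 3 cells were set against the largest state of their gate. A cell was high with at least 50% of the 40 genes above 1 TPM. No difference between groups was tested, since each gate is 1 sample. The members, the lists and the rules were chosen with earlier results of these data known. Named were, in each role group, the gene with the highest mean and that with the largest gate difference, all members past the size rule between the gates, up to 4 genes of each other list and the 10 genes most like the score in each gate, of which 1 is not reported here; other members, and genes outside the list such as Ccnb1, Cdkn1b and Rrm2, were named after their values were seen. Alternatives changed the pseudocount, the detection rule, the scaling, the level and line of a high cell, and the cells used. Promoter sequences are RefSeq's on GRCm38.p6, a later build than that of the expression values. Python 3.11.15, pandas 2.3.3, NumPy 2.4.6, SciPy 1.17.1 and Matplotlib 3.10.9 were used.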

Additional observations from a re-analysis of the deposited data

Results flagged for a closer look

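Of 12 combinations of a state and a measure in groups of 4 to 10 cells, 2 held a cell far from the others, where chance flags about 1 in 20. In the MP state of GMP, 1 of 5 cells had a mitosis score of 0.75, while the next was at 3.33. That cell held 8 mitosis genes above 1 TPM, against 24 to 30 in the other 4, at 4985 genes detected. In Gran-1 of GMP, 1 of 6 cells had 2775 genes detected, while the next had 5296. Its mitosis score of 2.40 was within the range of the other 5 cells, 1.54 to 5.77.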

How the results depend on the processing

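No paired analysis was possible because the gates share no cell numbers, and no difference between groups comes from a test. Under the alternatives, 178 values were counted as within the limit set for them and 44 were not. The 178 include the score differences taken as the percentage of mitosis genes among the top genes of a cell. Those are in percentage points, a different unit from the limit, so the limit cannot judge them. Some had the opposite sign to the difference as reported, such as Myelo-2 against Gran-2. The limit was 1 standard error of the score difference over cells for a score or median difference, which is narrower than the SD over cells, 1.5 times for a count and the counting interval for a share. The cause of the 44 moves was not tested.

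The count of mitosis genes at least 1 higher in CD11b+ GMP-P, 5 as reported, was 13 with a pseudocount of 0.1, 2 with one of 10, 12 with TPM rescaled without granule genes, 17 with equal medians of widely detected genes, 27 in matched cells, 13 in odd-numbered and 2 in even-numbered cells. The count lower, 3, was 7 and 0 with those pseudocounts, 0 in matched cells and 6 in even-numbered cells. Of these alternatives, the share of all genes past the line was counted for matched cells only. The median of all genes moved as well, to -1.26 with a pseudocount of 0.1 and -0.31 with one of 10. The median difference of 0.11 became 0.72 with equal medians, 1.57 in matched cells and 0.49 without the Myelo states, and the score difference of 0.21 became 0.77 with equal medians and 1.56 in matched cells. The lowest values, -0.05 for the median and -0.12 for the score, are below 0. The median of the mitosis genes stayed above that of all genes in all 12 settings, by 0.11 to 1.64.

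Against Mono, cMoP was at -2.20 and -0.73 with pseudocounts of 0.1 and 10, and MP at 1.199 in odd-numbered and -1.04 in even-numbered cells. Against Gran-2, Myelo-4 was at -5.16 and -1.76 with those pseudocounts and -2.76 with equal medians, and Myelo-2 at 1.11 with equal medians and -0.96 in even-numbered cells. Multi-Lin against Mono reached 0.15.

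With genes above 0 TPM counted as present, the share of high cells was 68.9% in GMP, 74.5% in CD11b+ GMP-P, 79.2% in Mono, and 100% in Myelo-1 and in Gran-1 of CD11b+ GMP-P. With 10 TPM it was 0% in cMoP. With presence among the top 1500 genes it was 2.22% in GMP, 25.5% in CD11b+ GMP-P, 4.17% in Mono, 10% in Gran-2 and 0% in Multi-Lin, cMoP, MP and Gran-1 of GMP, while Myelo-2 stood at 53.3%; this measure favours cells with few genes. With a line at 40% it was 72.3% in CD11b+ GMP-P, 75% in Mono, and 100% in Myelo-1 and in Gran-1 of CD11b+ GMP-P, and with a line at 60% it was 0% in cMoP. Alternatives added after seeing the data kept cells with at least 2500 genes, where 64.3% of CD11b+ GMP-P cells were high, or scored the percentage of mitosis genes in the top 1500, where Myelo-2 stood 13.9 and Myelo-1 13.4 percentage points above Gran-2 and Myelo-4 at -23.2 percentage points. No value could be had for Myelo-4 with at least 2500 genes or for state comparisons in matched cells.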

Other observations

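States with fewer than 3 cells in a gate entered no comparison. The 2 Gran-2 cells of GMP had mitosis scores of 0.74 and 0.85, with 6 and 7 of the 40 genes above 1 TPM; in CD11b+ GMP-P the same state ran from 0.75 to 5.95 over 20 cells. They were both high for DNA replication, at replication scores of 3.94 and 3.92. The only Mono cell of CD11b+ GMP-P had a mitosis score of 2.02 with 16 genes, and the only Multi-Lin cell of that gate 0.56 with 5 genes.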
